A study of Mus musculus with 6 samples.

Results

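The genes flanking Josd2 on mouse chromosome 7 were followed across 6 aorta libraries. The members are the protein-coding genes whose start lies in a window of 1.5 Mb around Josd2. Josd2 itself and 4 other genes of the window are not members. This rule gave 65 members of 41064 genes in the table. The libraries comprise 3 labelled as Josd2 knockout (KO) with angiotensin II (Ang II), a vasoconstrictor peptide, and 3 labelled wild type (WT) with Ang II. All 6 libraries therefore carry the treatment, and untreated aortas were not analysed here. The sources used here do not give the strain, age or sex of the mice, the dose of Ang II or how the allele was made. The design text names 3 mice in each group without saying which library each mouse gave. So p-values rest on the spread between libraries, part or all of which may be technical. How far they reflect variation between mice is not known. The extraction protocol speaks of adipose tissue where the other labels say aorta.

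Genes next to an engineered locus are commonly inspected because a deletion or an inserted cassette can alter transcription of its neighbours, and because the surrounding chromosome can descend from the strain in which the allele was built. The window is gene-dense. Its lower end holds the kallikreins, secreted serine proteases that arose by tandem duplication and are made mainly by glands and epithelia. The rest holds broadly expressed genes of transcription, DNA repair and membrane traffic beside a few genes of neurons, germ cells and immune cells.

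Levels are in CPM, counts after TMM scaling of each library to a common size. Changes are log2 fold changes, knockout over WT. Called means an adjusted p under 0.05 in edgeR's quasi-likelihood test over all 20132 genes that passed a filter on low counts. Total counts lay between 69788553 and 75886761 in the knockout libraries and between 63612353 and 74241278 in WT. Mitochondrial genes took 23.8% to 23.9% of counts in knockout libraries and 36.2% in WT, so the choice of scaling matters. Scaled by library totals, the median of all genes lay at 0.41 on the log2 scale, against -0.003 with TMM, and changes below are relative to TMM. The labelled tissue was checked first. Summed CPM of 5 smooth muscle markers was 19248 to 19355 in knockout aortas and 19882 to 20060 in WT. Of these 5, 3 were called higher and 1 lower. The lower one was Acta2, at 8032 ± 5.94 CPM in knockout aortas and 9865 ± 36.9 CPM in WT (SD, n = 3 each). With libraries this close even the 1.05-fold change of the member Rcn3 was called, and variation between mice cannot be judged from such a spread. Summed CPM of 5 endothelial markers was 660 to 671 in knockout aortas and 365 to 373 in WT, and all 5 rose. Summed CPM of 5 macrophage markers was 263 to 267 in knockout aortas and 545 to 562 in WT, with 4 of 5 lower. The part of these marker shifts in the results below was not tested, and in bulk tissue fewer cells of a type and less RNA per cell cannot be told apart.

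Josd2, a deubiquitinase of the Josephin family at chr7:44467980-44471662 on the plus strand (GRCm38 coordinates as the table gives them), was still detected in every library labelled knockout. It had 1742, 1737 and 1780 counts in knockout libraries, against 1649, 1762 and 1890 in WT. On the TMM scale this was 20.97 ± 0.947 CPM in knockout aortas and 30.1 ± 0.836 CPM in WT (SD, n = 3 each), with groups that did not overlap (log2 value -0.52 with an SE of 0.07, adjusted p = 0.000244 in edgeR). The knockout libraries thus kept 69.8% of the WT level in CPM and 92.8% in FPKM. With library totals the value was -0.11 and did not pass (edgeR adjusted p = 0.231). The labels are used as given, and every direction below rests on them.

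Most flanking genes changed little. Of the 65 members, 46 passed the filter on low counts, 12 had counts too low to test and 7, all kallikreins, had 0 counts in every library. Of the 46 tested members 14 were called, 10 higher and 4 lower in knockout aortas. That is 30.4% of tested members, beside 24.7% of all tested genes, and 21.7% higher and 8.70% lower beside 13.2% and 11.5%. The median log2 fold change was 0.08 over the tested members and -0.003 over all tested genes. A mean FPKM of at least 1 was reached by 31 of 46 tested members and by 10172 of 15334 tested protein-coding genes. Over all tested genes, noncoding ones included, it was 11352 of 20132. Among the 31 members with a mean FPKM of at least 1, 12 were called (38.7%), beside 36.3% of the 10172 protein-coding genes at that level. By direction 32.3% of these members were higher and 6.45% lower, beside 20.6% and 15.7%. On chromosome 7 outside the window 27.5% of 1149 tested protein-coding genes were called, and 29.9% of 14134 on other chromosomes. The members' share of calls was thus near its background.

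The called changes were also small. Of the 14 called members, 8 lay within 0.5 of 0 on the log2 scale. The median absolute log2 fold change was 0.19 over tested members, 0.26 over protein-coding genes elsewhere on chromosome 7 and 0.25 over those of other chromosomes. At least 2-fold changes were called for 3 members, all lower, and for none higher, beside 3.39% of all tested genes lower and 2.57% higher. CPM of the groups did not overlap for 26 of 46 tested members, beside 8283 of 20132 tested genes (41.1%) and 6988 of 15334 tested protein-coding genes. At a mean FPKM of at least 1 it was 19 of 31 members, beside 5217 of 10172 protein-coding genes. Among the 32 tested members that were not called, 17 had a 95% confidence interval within 0.5 of 0. For 11 others, all with at most 181 counts in any library, the interval reached past 1 in at least one direction, so a change of 1 log2 unit lay within it. Without knockout replicate 3 the number of called members was 9, and 18.1% of all tested genes were called.

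**Figure D1:**
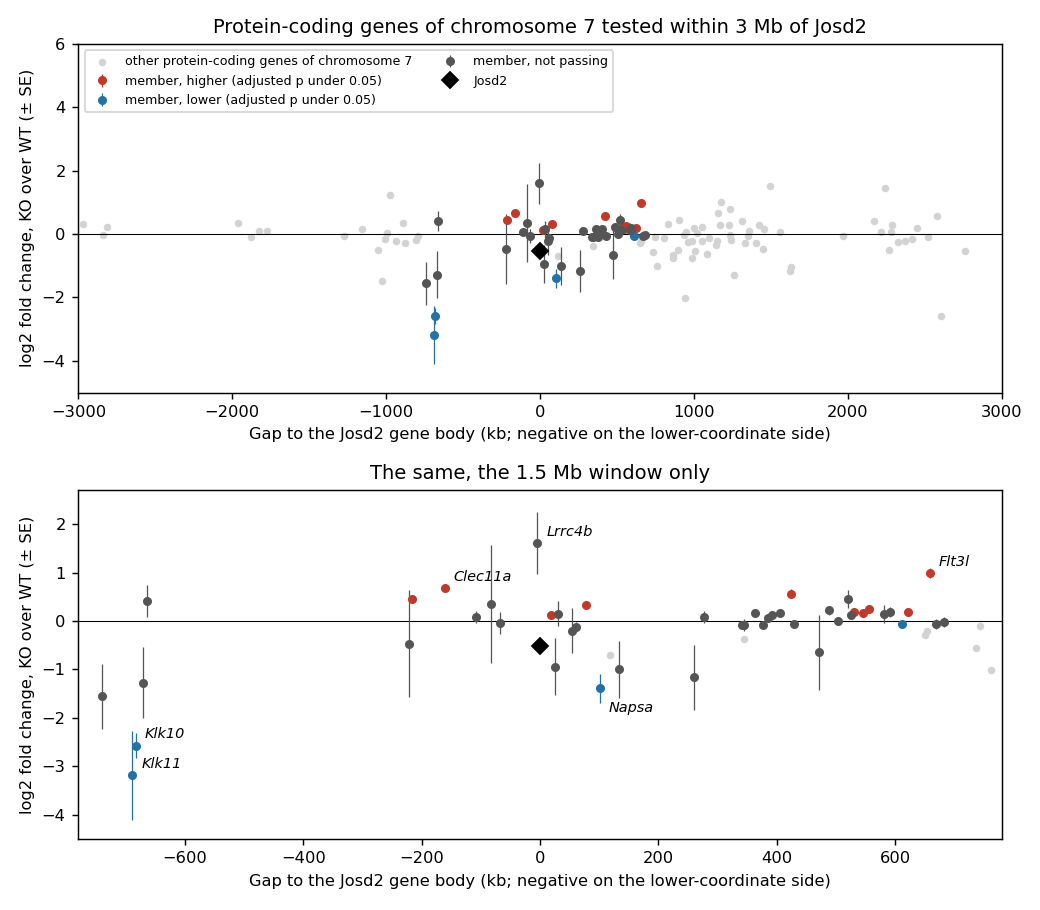
Log2 fold change, knockout over WT (TMM scaling), of tested protein-coding genes against the gap to the Josd2 gene body in kb, within 3 Mb (upper panel) and within the window (lower panel). Points with bars are members ± SE, grey points are other genes of chromosome 7 and the diamond is Josd2 at -0.52. Most members lie near 0, but none of the 6 farthest tested members (669 to 740 kb) lies above 0. These are Klk9, Klk10, Klk11 and Klk13 at the lower end, and Aldh16a1 and Pih1d1, both near 0, at the upper end. Klk10 and Klk11 are lowest.

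Members near Josd2 were not called more often than distant ones, though few were tested there. Distance was taken as the gap between gene bodies. Within 50 kb 1 of 4 tested members was called, and from 50 to 150 kb 2 of 8. From 150 to 300 kb 2 of 5 were called, and beyond 300 kb 9 of 29. The median log2 fold changes in these bins were 0.14, -0.08, 0.09 and 0.12. The median absolute log2 fold changes were 0.55, 0.27, 0.47 and 0.17, highest in the nearest bin. A mean FPKM of at least 1 was reached by 1 of 4, 3 of 8, 3 of 5 and 24 of 29 tested members, so the near bins hold mostly genes of low level. Across the 46 tested members the Spearman correlation of distance with log2 fold change was -0.06 and with its absolute value 0.03. The farthest bin was uneven. Of the 10 tested members at 526 to 664 kb 6 were called, 5 higher and 1 lower, beside 24.7% of all tested genes. A mean FPKM of at least 1 was reached by 9 of these 10, and 36.3% of protein-coding genes at that level were called. The median of the 10 was 0.18. The 6 at 669 to 740 kb, 2 of them called lower, had a median of -1.42 and none lay above 0. They come from both ends of the window. The kallikreins Klk9, Klk10, Klk11 and Klk13 on the lower-coordinate side ran from -1.28 to -3.19. Aldh16a1 (-0.07) and Pih1d1 (-0.02) on the upper side hardly differed, so the low median is that of the kallikreins. These are descriptions across genes, which share libraries and are not replicates. On the lower-coordinate side 4 of 12 tested members were called, 2 higher and 2 lower, and on the upper side 10 of 34, 8 higher and 2 lower. In the adjoining 1.5 Mb, 1 of 16 tested protein-coding genes was called below the window and 13 of 47 above it.

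Closest to Josd2 lies Aspdh, an aspartate dehydrogenase domain gene whose end is 0.221 kb before the Josd2 start. It had 0, 6 and 0 counts in knockout libraries and 0 in each WT library, which is too few for a fold. Next on that side, 4.63 kb away, is Lrrc4b, which encodes a postsynaptic adhesion protein of neurons. Its level was 2.13, 0.332 and 2.17 CPM in knockout libraries, against 0.254, 0.668 and 0.590 CPM in WT. Knockout replicates 1 and 3 stood above every WT library, while knockout replicate 2 fell within the WT range. The difference did not pass (1.61, SE 0.64, 95% interval 0.18 to 3.03, edgeR adjusted p = 0.098). Without knockout replicate 2 it did (2.09, edgeR adjusted p = 0.011), as it did in DESeq2 and with library totals. Of 4 neuronal markers 1 was lower and none higher, with a summed 1.55 to 3.06 CPM in knockout aortas and 5.02 to 6.96 CPM in WT.

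On the other side the nearest member is Emc10, a subunit of the ER membrane complex that inserts membrane proteins, 18.3 kb from Josd2. It had 112.0, 114.2 and 112.0 CPM in knockout libraries, against 104.2, 101.3 and 105.2 CPM in WT. The groups did not overlap and the rise was 1.09-fold (0.12, SE 0.04, edgeR adjusted p = 0.028). It was not called without knockout replicates 1, 2 or 3, without WT replicate 2, or with the replicate block (adjusted p up to 0.096). Fam71e1 starts 52 bases from Emc10 on the opposite strand and had 0.298 ± 0.069 CPM in knockout aortas and 0.573 ± 0.193 CPM in WT, with overlapping groups and no call (-0.94, SE 0.59). Mybpc2, a myosin-binding protein of fast skeletal muscle, had 2.08 ± 0.026 CPM in knockout aortas and 1.88 ± 0.462 CPM in WT, and its interval ran from -0.43 to 0.73.

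Further out within 100 kb, Pold1 encodes the catalytic subunit of DNA polymerase delta. It had 11.7, 11.8 and 11.3 CPM in knockout libraries, against 12.5, 13.2 and 12.2 CPM in WT. Its groups did not overlap, but the difference did not pass (-0.12, 95% interval -0.34 to 0.09), and its sign turned with library totals (0.29). Nr1h2, which encodes the oxysterol receptor LXR beta and lies 77.95 kb from Josd2, had 59.3, 57.7 and 57.8 CPM in knockout libraries, against 49.7, 44.4 and 45.1 CPM in WT. All knockout libraries stood above all WT libraries, a 1.26-fold rise (0.33, SE 0.06, edgeR adjusted p = 0.00131) that was called in all 16 alternatives. Spib, a transcription factor of B cells and plasmacytoid dendritic cells, had 46 to 48 counts in knockout libraries and 28 to 57 in WT, without a call. Its 5 companion B cell markers gave no call either, at a summed 4.52 to 5.42 CPM in knockout aortas and 5.16 to 9.82 CPM in WT. Syt3, a synaptotagmin, had 2.29 to 3.10 CPM in knockout libraries and 2.57 to 3.26 CPM in WT (-0.05, 95% interval -0.53 to 0.44). 1700008O03Rik, at 7 to 20 counts in knockout libraries and 0 to 16 in WT, did not pass (0.35, SE 1.22).

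**Figure D2:**
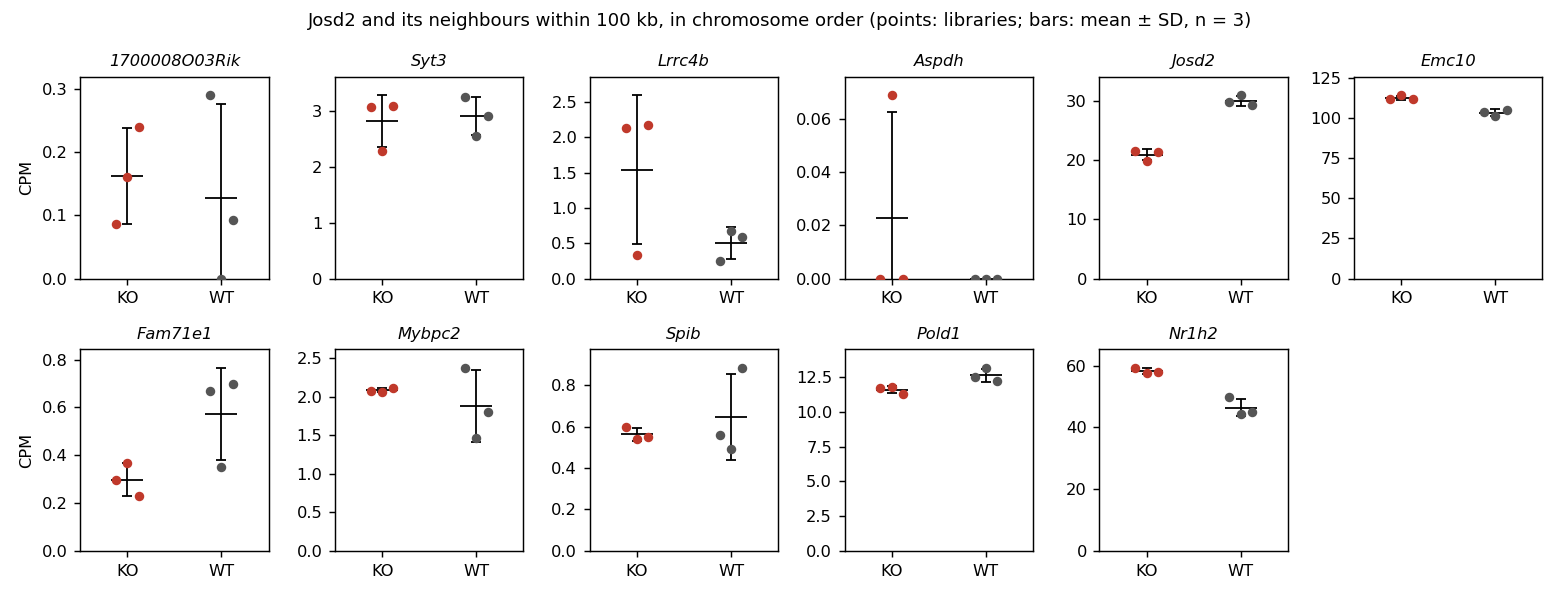
CPM of Josd2 and its 10 neighbours within 100 kb in each library, in chromosome order, with knockout left of WT; points are libraries and bars mean ± SD (n = 3 each), each panel on its own axis from 0. Josd2 is lower in knockout libraries, Emc10 and Nr1h2 are higher, and Lrrc4b is high in 2 of 3 knockout libraries.

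The largest increase among called members was that of Flt3l, 658 kb from Josd2, which encodes the growth factor ligand of the Flt3 receptor needed by dendritic cells and early lymphoid progenitors. It had 23.5, 20.6 and 24.5 CPM in knockout libraries, against 10.1, 12.3 and 12.2 CPM in WT. The groups lay far apart, a 1.98-fold rise (0.99, SE 0.11, 95% interval 0.75 to 1.22, edgeR adjusted p = 5.1e-05). In the GENCODE annotation Gm45713, a gene model on the same strand, covers 22.1% of its exon bases, so reads there are uncertain between them. Flt3, its receptor, had 20, 56 and 35 counts in knockout libraries and 76, 43 and 32 in WT, with overlapping groups and no call. Of 5 dendritic cell markers 1 was lower and none higher, with a summed 14.3 to 17.1 CPM in knockout aortas and 13.9 to 18.6 CPM in WT. Clec11a, a secreted C-type lectin that acts as a growth factor on marrow and bone-forming cells, had 55.6, 49.9 and 56.2 CPM in knockout libraries, against 33.7, 32.4 and 35.3 CPM in WT. Its groups did not overlap either, at 1.59-fold (0.67, SE 0.06, edgeR adjusted p = 1.8e-05).

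Fuz, an effector of planar cell polarity needed for cilia, was next. It had 18.2, 20.8 and 21.6 CPM in knockout libraries, against 12.9, 13.7 and 14.4 CPM in WT (0.56, SE 0.10, edgeR adjusted p = 0.00134). Other genes cover 38.5% of its exon bases, mostly D7Bwg0826e on the opposite strand, and no use of strand is stated. 2410002F23Rik had 28.8, 27.1 and 26.6 CPM in knockout libraries, against 20.8, 20.1 and 19.8 CPM in WT (0.44, SE 0.07, edgeR adjusted p = 0.000849). 1700028J19Rik, whose start in the deposited table lies 27 bases from that of 2410002F23Rik on the opposite strand, had 2 to 20 counts in knockout libraries and 4 to 24 in WT, without a call. The other called increases were under 1.2-fold. They were Prr12 (0.25) and Scaf1 (0.19), a partner of the C-terminal domain of RNA polymerase II, Fcgrt (0.18), the neonatal Fc receptor that recycles IgG and albumin, and the small GTPase gene Rras (0.15). The call of Prr12 was lost without knockout replicates 2 or 3 and without WT replicates 1 or 2 (edgeR adjusted p between 0.069 and 0.103). Scaf1 sat at the threshold (edgeR adjusted p = 0.0489), and its call was lost in 6 of 16 alternatives.

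**Figure D3:**
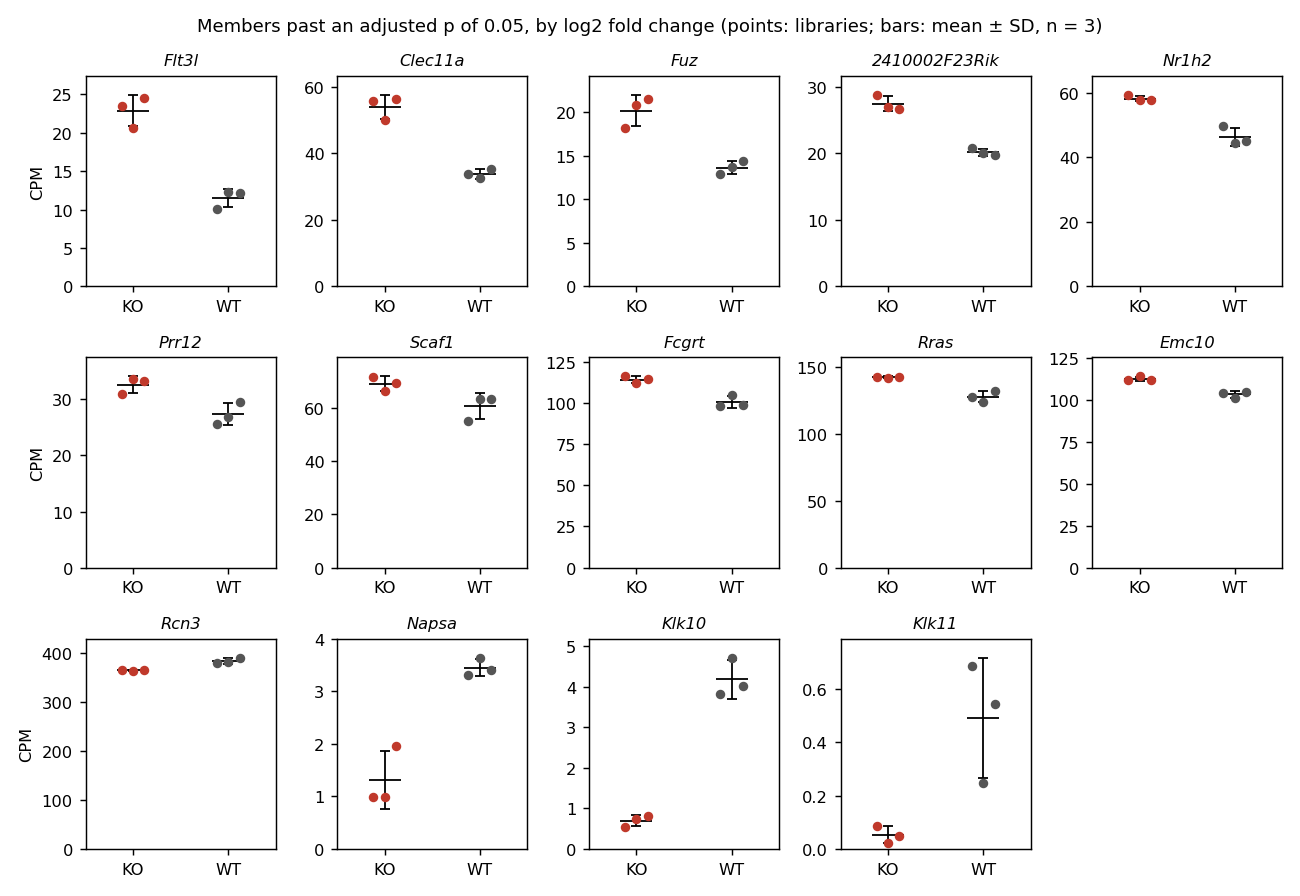
CPM in each library of the 14 called members, ordered from the highest to the lowest log2 fold change, with knockout left of WT; points are libraries and bars mean ± SD (n = 3 each), each panel on its own axis from 0. Groups separate in every panel, widely for Flt3l, Clec11a and Klk10 and narrowly for Emc10 and Rcn3 (1.09-fold and 1.05-fold).

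Among the 4 called decreases, Klk10 had the smallest adjusted p. It encodes a kallikrein-related peptidase that is also made by arterial endothelium under steady flow, and lies 683 kb from Josd2. It had 44, 64 and 68 counts in knockout libraries, against 210, 268 and 259 in WT. That is 0.699 ± 0.138 CPM in knockout aortas and 4.18 ± 0.473 CPM in WT, a 5.96-fold decrease (-2.58, SE 0.26, 95% interval -3.14 to -2.01, edgeR adjusted p = 2.6e-05) that was called in all 16 alternatives. Beside it the endothelial markers rose, Cdh5 to 87.2 ± 2.36 CPM in knockout aortas against 45.2 ± 3.29 CPM in WT. Klk11, the neighbour of Klk10, had 7, 2 and 4 counts in knockout libraries, against 38, 14 and 35 in WT (-3.19, SE 0.91, edgeR adjusted p = 0.0261). Its call was lost without knockout replicates 2 or 3, without WT replicates 1 or 3, and with the replicate block. Klk13 (-1.55, 95% interval -3.03 to -0.08) and Klk9 (-1.28, -2.91 to 0.36) did not pass, and neither did Klk8 (0.41, -0.30 to 1.13).

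Kallikreins made up 18 of the 65 members. Of the 5 that could be tested 2 fell and none rose, at a median of -1.55, beside 11.5% of all tested genes lower. Beside them all 3 lung markers fell, and all 3 seminal vesicle markers fell too, with seminal vesicle markers at a summed 0 to 0.0480 CPM in knockout aortas and 2.43 to 3.48 CPM in WT. Their part in the kallikrein values was not tested. Of the other 13, 7 had 0 counts throughout, among them Klk1 and 5 of the 9 Klk1b glandular kallikreins, and the rest had at most 13 counts in any library. Klk7, at 7, 0 and 6 counts in knockout libraries and 0 in WT, and Klk1b11, at 0 in knockout libraries and 13, 0 and 0 in WT, were too low for a fold. So were Klk1b21, Klk1b5 and Acp4, each at 0 in one group and no more than 4 counts in any library of the other. The Klk1b genes are near-identical copies, so even these counts are uncertain between them.

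Napsa encodes napsin A, an aspartic protease of alveolar type II cells and kidney tubules, and is 101 kb from Josd2. It had 0.982, 0.996 and 1.96 CPM in knockout libraries, against 3.32, 3.64 and 3.40 CPM in WT. The groups did not overlap (-1.39, SE 0.30, edgeR adjusted p = 0.0059). All 3 lung markers fell with it, at a summed 0.676 to 0.984 CPM in knockout aortas and 10.1 to 13.0 CPM in WT. Of 4 kidney markers 2 fell, at a summed 9.82 to 11.3 CPM in knockout aortas and 28.4 to 32.3 CPM in WT. Most of that fall was Aqp2, at 0.358 CPM in knockout aortas and 16.6 CPM in WT. Nphs1 stood at 10.2 and 13.5 CPM. Slc12a1, at no more than 17 counts in any library, was not called, and Umod was at or near 0. Whether these tissues took part in the change of Napsa was not tested. The antisense gene Gm15396 covers 18.9% of the Napsa exon bases. Rcn3, an ER calcium-binding protein of the secretory pathway, was the member with the highest level per length, at 207 ± 0.689 FPKM in knockout aortas and 164 ± 2.71 FPKM in WT. On the TMM scale it had 364.8, 364.5 and 365.7 CPM in knockout libraries, against 379.6, 382.0 and 390.7 CPM in WT. The fall of 0.07 was called (SE 0.02, edgeR adjusted p = 0.0275) but turned to a rise of 0.34 with library totals. The call was lost without the filter on low counts (adjusted p = 0.32) and when knockout replicate 1, 2 or 3 or WT replicate 2 or 3 was left out (edgeR adjusted p between 0.059 and 0.103). The antisense gene Gm45669 covers 16.9% of its exon bases.

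Genes of DNA and RNA machinery numbered 16, of which 3 rose, none fell and 13 did not pass, with a median of 0.10. That is 18.8% higher, beside 13.2% of all tested genes, and 1 of 16 rose without knockout replicate 2 or without knockout replicate 3. A mean FPKM of at least 1 was reached by 14 of the 16, and 20.6% of protein-coding genes at that level were higher. Prmt1, the main arginine methyltransferase for asymmetric dimethylation, had 37.3 ± 0.686 CPM in knockout aortas and 37.5 ± 1.95 CPM in WT, with an interval of -0.14 to 0.12. Irf3, the transcription factor of antiviral interferon induction, had 40.1 ± 1.47 CPM in knockout aortas and 37.0 ± 2.85 CPM in WT (0.12, -0.03 to 0.27). Atf5, a stress-induced transcription factor, had 63.2 ± 2.90 FPKM in knockout aortas and 50.7 ± 2.67 FPKM in WT, or -0.09 on the TMM scale without a call. With library totals 14 of these 16 rose, beside 46.8% of all tested genes. Their median was then 0.51, beside 0.44 for protein-coding genes with a mean FPKM of at least 1. Genes of membrane traffic, growth signalling and cytoskeleton numbered 15 tested, of which 4 rose (26.7%) and 1 fell (6.67%). The shares of all tested genes were 13.2% and 11.5%. Among protein-coding genes with a mean FPKM of at least 1, a level that 12 of the 15 reached, they were 20.6% and 15.7%. With library totals 12 of the 15 rose, beside 46.8%. With TMM none of 5 tested neuronal genes and none of 2 tested germ line genes was called by edgeR. With library totals 3 of the 5 neuronal genes were called higher, beside the same 46.8%. DESeq2 called 2 of them higher, beside 33.9% of all tested genes called in either direction. Without knockout replicate 2, 1 was called higher, beside 17.7% called in either direction. Shank1, a postsynaptic scaffold, had 14.3 ± 0.173 CPM in knockout aortas and 13.5 ± 2.33 CPM in WT. In the short list of 6 lectins and immune cell genes Clec11a, Fcgrt and Flt3l rose (50%, beside 13.2% of all tested genes). Irf3 and Spib did not pass. Napsa, which fell, was placed in that list although it is best known from lung and kidney. These lists overlap and their medians are descriptions. The single zinc finger member, Zfp473, did not pass (-1.17, SE 0.66).

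The scaling sets the balance of directions. With library totals 34 of 46 tested members were called, 31 of them higher, beside 50.6% of all tested genes called and 46.8% higher. The members' median was then 0.49, and Josd2 at -0.11 stood below it. The 10 members called higher with TMM were called higher with library totals too. Klk10, Klk11 and Napsa were lower under both scalings.

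**Figure D4:**
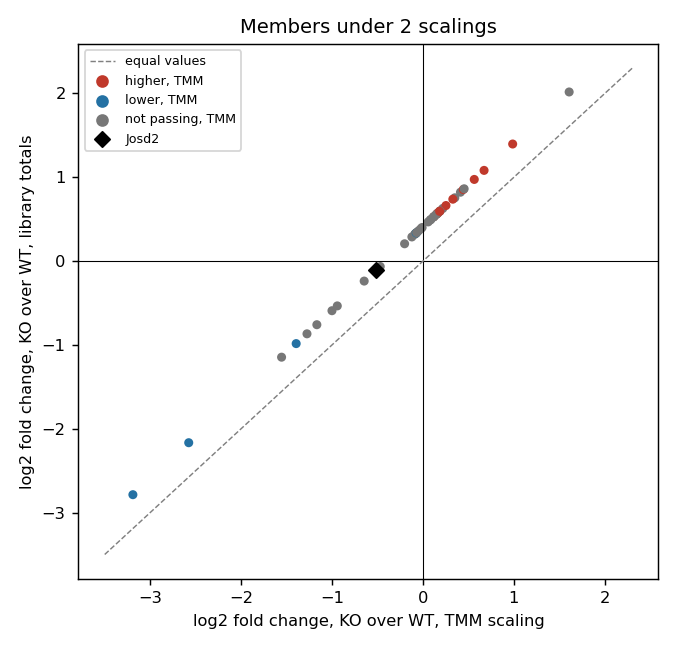
Log2 fold change, knockout over WT, of each tested member with TMM scaling (x axis) and with library totals (y axis); colours give the TMM call, the diamond is Josd2 and the dashed line marks equal values. All points sit about 0.41 above the line, so members near 0 with TMM are positive with library totals.

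A property that the rule did not use is promoter sequence. RefSeq promoters (GRCm38.p6) were found for 57 of the 65 members, and the 250 bases before each start were read. CpG dinucleotides, which are dense in promoters of broadly expressed genes, were more frequent in tested members than in those with few or no counts. The median observed-to-expected CpG ratio was 0.631 in 39 tested members, 0.152 in 18 members that were not tested and 0.374 over all 32851 promoters in the table. Kallikreins had a median of 0.149 and the other members 0.624. The GC box GGGCGG, searched on both strands as were all motifs, was found in 59.0% of tested members and in 32.7% of all promoters. The CCAAT box CCAAT was found in 28.2% and 33.9%, and the TATA box TATAAA in 2.56% and 12.4%. The E-box CACGTG was found in 2.56% and 6.02%. The AP-1 site TGANTCA was found in 0 of 39 and in 6.75% of all promoters. The tested members had passed the filter on low counts, while the whole set takes promoters of genes at any level. In members that were not tested the GC box was found in 11.1%. The shares thus cannot tell a trait of the window from one of expressed genes. The motif words do not contain one another, and these are letter matches in a short window and show no binding. Shown here are Josd2 as the targeted gene, Nr1h2 as a called gene within 100 kb, Flt3l and Klk10 as the largest called rise and fall among members averaging 1 FPKM or more, and Klk1 as a silent kallikrein. Capitals mark CpG, of which there are 10, 13, 11, 2 and 0, and each runs 5′ to 3′ on the gene's strand, ending at the base before the RefSeq start.
Josd2, chr7:44467730-44467979, plus strand: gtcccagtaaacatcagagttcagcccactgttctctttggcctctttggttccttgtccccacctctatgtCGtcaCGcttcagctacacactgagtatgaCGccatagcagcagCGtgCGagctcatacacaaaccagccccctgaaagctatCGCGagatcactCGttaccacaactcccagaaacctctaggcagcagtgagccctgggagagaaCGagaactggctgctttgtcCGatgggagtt
Nr1h2, chr7:44553966-44554215, minus strand: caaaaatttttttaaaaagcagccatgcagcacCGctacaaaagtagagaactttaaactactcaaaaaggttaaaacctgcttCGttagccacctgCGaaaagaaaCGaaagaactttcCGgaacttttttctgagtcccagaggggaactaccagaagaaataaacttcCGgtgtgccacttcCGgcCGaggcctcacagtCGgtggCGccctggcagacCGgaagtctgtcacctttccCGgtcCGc
Flt3l, chr7:45136433-45136682, minus strand: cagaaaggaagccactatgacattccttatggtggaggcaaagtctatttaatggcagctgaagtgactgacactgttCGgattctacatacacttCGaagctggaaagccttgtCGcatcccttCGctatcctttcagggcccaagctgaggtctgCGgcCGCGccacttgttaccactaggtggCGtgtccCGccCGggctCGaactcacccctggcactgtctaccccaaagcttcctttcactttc
Klk10, chr7:43780804-43781053, plus strand: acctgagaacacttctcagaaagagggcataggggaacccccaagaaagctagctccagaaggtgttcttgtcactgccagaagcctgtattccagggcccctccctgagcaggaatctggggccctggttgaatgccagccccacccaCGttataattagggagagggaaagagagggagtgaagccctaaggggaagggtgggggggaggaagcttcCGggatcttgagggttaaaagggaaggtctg
Klk1, chr7:44225110-44225359, plus strand: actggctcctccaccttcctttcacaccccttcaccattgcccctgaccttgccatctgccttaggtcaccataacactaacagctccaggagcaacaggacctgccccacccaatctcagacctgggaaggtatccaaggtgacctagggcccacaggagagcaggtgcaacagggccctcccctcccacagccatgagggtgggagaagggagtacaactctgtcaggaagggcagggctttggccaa

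By the starts in the deposited table, 7 pairs of protein-coding genes of the window on opposite strands began within 500 bases of each other. In 2 of these pairs 1 gene was called and its partner was not, and in the other 5 neither was called. The difference within a pair was not tested, and the partners in the first 2 pairs were at low counts. The 5 uncalled pairs included Prrg2 (0.14) with Nosip (0.19), and Aldh16a1 (-0.07) with Pih1d1 (-0.02). For 1700028J19Rik the RefSeq start lies 10573 bases from the one in the table, so in the RefSeq table its nearest start does not lie beside that of 2410002F23Rik. For Emc10 and Fam71e1 the RefSeq starts lie 16 and 14 bases from those in the table. The bases between the table's starts of that pair, on the plus strand with CpG in capitals, are shown as the stretch between the nearest called member and its divergent neighbour.
Emc10 and Fam71e1, chr7:44496530-44496580: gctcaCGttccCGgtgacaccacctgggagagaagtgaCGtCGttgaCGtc

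Base composition differed from the genome too. The median transcript GC content was 56.9% in tested members and 49.7% in all tested protein-coding genes. Of 2924 tested protein-coding genes outside the window with GC between the members' quartiles (54.7% to 59.8%), 33.0% were called, 19.5% higher and 13.6% lower, with a median log2 fold change of 0.05. Over all tested protein-coding genes 29.7% were called, 16.1% higher and 13.7% lower, with a median of 0.02. The Spearman correlation of transcript GC with log2 fold change was 0.07 over 15326 tested protein-coding genes and 0.04 over the 46 tested members. The part of base composition in the members' values was not tested. Median gene body length was 10.7 kb in members and 23.5 kb in all tested protein-coding genes.

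No gene at the limits of the window was called. Just inside the lower limit Klk13 stood at -1.55 and Klk12 had no counts, and just outside it Ctu1 stood at -0.07 and Klk14 had at most 2 counts. Just inside the upper limit Slc17a7 and Ccdc155 had at most 40 and 6 counts, and just outside it Dkkl1 stood at -0.55 and Tead2 at -0.10, neither called.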

How the data were processed

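The authors deposited a table with counts and FPKM for each gene in 6 libraries. Per the labels' protocols, poly(A) RNA was sequenced as paired-end libraries. Per the submitters' processing notes, Bowtie 0.12.2, HISAT2 2.0 and build mm8 were named, with no role or order. The sources used here do not name the counting tool, annotation, strand use or filters. Gene coordinates matched GENCODE M21 (GRCm38) for 92.0% of rows and 50 of 65 members, so they are given as GRCm38.

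Per the file headers the table holds counts. Every deposited value is whole, but 1091 to 1137 genes a library have 4 counts against 792 to 867 with 3, so the authors' values were treated as estimated counts. Rounding changed none. Deposited FPKM values, scaled by the authors, served for levels per length and for limma.

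Genes passing filterByExpr were tested with edgeR 4.0.16 (R 4.3.3, TMM, quasi-likelihood, Benjamini-Hochberg over all genes tested). SE is the log2 fold change over the square root of F. The steps were tested on simulated data. Alternatives used DESeq2 1.42.0, limma 3.58.1 and other scalings, filters and libraries.

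Members and lists were chosen with earlier results of these data known. Named were tested members within 100 kb, the 10 largest called changes each way where the group with the higher level averaged at least 1 FPKM, the 5 highest FPKM, members at 0 in one group, those at the window limits and those in role lists. The 4 other protein-coding genes of the window are not reported here.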

Additional observations from a re-analysis of the deposited data

How the results depend on the processing

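Calls of Flt3l, Clec11a, 2410002F23Rik, Fuz, Nr1h2, Fcgrt, Rras and Klk10 kept their direction and stayed past the threshold in all 16 alternatives. Scaling moved most else. With library totals 34 members were called, 31 higher, at a median of 0.49, and 10193 of all genes. Without mitochondrial genes in the totals 21 were called, 18 higher, at a median of 0.24. Of all tested genes 31.3% were then called, with 78.1% of those calls higher. In limma on FPKM 32 members were called, 29 higher, Klk8 among them, at either pseudocount. With a pseudocount of 1 the median was 0.32 and 10314 genes were called, and with 0.1 it was 0.46 and 10196. Josd2 was then not called, at -0.11 with library totals and -0.097 and -0.11 in limma. Called members within 150 kb numbered 6 with library totals and 5 in limma at either pseudocount, against 3 in edgeR with TMM. Of all tested genes 50.6% were called with library totals, 51.2% and 50.6% in limma, and 24.7% in edgeR with TMM.

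The following signs turned upward with library totals, with totals without mitochondrial genes, and in limma with pseudocounts of 1 and 0.1, in that order. Atf5 was 0.32, 0.066, 0.31 and 0.32. Pold1 was 0.29, 0.033, 0.20 and 0.28. Rcn3 was 0.34, 0.081, 0.33 and 0.34. Syt3 was 0.36, 0.11, 0.16 and 0.32. Spib was 0.21 with library totals and 0.033 and 0.15 in limma.

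At a mean FPKM of at least 1, 2 members were lower and the median was 0.10. Members within 500 kb held 6 calls among 28 tested (21.4%), beside 24.7% of all tested genes. Leaving out 1 library gave calls for 17.7% to 20.8% of all tested genes. It gave 9 to 12 member calls, 2 to 3 of them lower, with member medians of 0.0076 to 0.11. It turned 1700008O03Rik (-0.23 to 1.75), Syt3 (-0.13 to 0.087) and Spib (-0.36 to 0.097). DESeq2 called 19 of 46 members, beside 33.9% of all tested genes, and the unfiltered fit 13 of 58, beside 11.7%.

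Same-numbered knockout and WT libraries had correlations of deviations of 0.034, -0.023 and -0.0096. Differently numbered ones lay between -0.024 and 0.034. These values show no pairing by number, but with so small a spread between libraries they cannot exclude one. The replicate block gave 11 called members, beside 22.7% of all tested genes, losing Emc10 (0.12), Klk11 and Scaf1 (0.19). The cause of these shifts was not tested.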

Other observations

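The window also held 48 rows that are not protein-coding. Mir7052 lies inside the Josd2 gene body and had 38, 24 and 26 counts in knockout libraries, against 17, 43 and 29 in WT, with overlapping groups and no call (-0.51, SE 0.61). The lincRNA gene 5430431A17Rik starts 1.88 kb beyond the end of Josd2 on the same strand (chr7:44473538-44486138) and was chosen after its values were seen. It had 411, 536 and 601 counts in knockout libraries, against 136, 55 and 138 in WT. That is 6.15 ± 1.05 CPM in knockout aortas and 1.86 ± 0.788 CPM in WT (SD, n = 3 each), and all knockout libraries stood above all WT libraries. The difference was 3.31-fold (log2 value 1.73 with an SE of 0.31, adjusted p = 0.00174 in edgeR). It was called upward in all 16 alternatives, between 1.39 and 2.14, with adjusted p of 9.4e-10 to 0.0116. Josd2, the gene before it, was lower with TMM, and Emc10, the member after it, was 1.09-fold higher. The table gives no counts per exon or per strand, so whether reads in 5430431A17Rik continue from Josd2 was not tested.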
